A study of Mus musculus with 4 samples.

Results

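The antioxidant, glutathione and NRF2 target genes described here are a set of 35 mouse genes. They were chosen by name for their function and not by a measured value, though with earlier results of these data known. They cover the NRF2 regulators, the enzymes that make, use and recycle glutathione, the thioredoxin system, and the enzymes that remove superoxide and peroxide. Of these, 32 were measured by a probe set naming only that gene, among 19946 genes in all, and G6pdx, Prdx5 and Prdx6 were not analysed here. RNA of alveolar macrophages (AM), the resident phagocytes of the airspace, was hybridized to 4 Affymetrix mouse gene arrays. There were 2 arrays of AM from TREM2-/- mice and 2 arrays of AM from wild-type (WT) mice. TREM-2 is a surface receptor of the myeloid lineage, and the TREM2-/- mice lack it in every cell, not only in AM. All mice were 8 to 10 weeks old and untreated, with C57/Blk6 as background strain, and the TREM2-/- line had been backcrossed to it for 10 generations. The study's methods state that WT mice were purchased and that all mice were bred in the authors' animal facility. Mice were matched for age and sex. Each array held RNA of pooled mice recovered by lavage, and how many mice went into a pool is not stated. The p-values below therefore measure the spread between arrays of a genotype, which may be technical.

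NRF2, encoded by Nfe2l2, is the transcription factor that switches on most inducible antioxidant genes. KEAP1 binds NRF2 in the cytoplasm and presents it for degradation, until oxidants or electrophiles modify cysteines of KEAP1 and NRF2 accumulates. NRF2 then pairs with small MAF proteins at antioxidant response elements and raises the transcription of genes such as Nqo1, Hmox1 and Gclm. NRF2 is thus controlled largely at the protein level, and its activity is commonly read from its target transcripts. AM live in the most oxygen-rich tissue of the body, clear inhaled oxidants and particles, and make superoxide themselves with the phagocyte NADPH oxidase.

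The core of the antioxidant response element, TGACNNNGC, was searched on both strands from 250 bases before to 50 bases after the transcription start in the RefSeq promoters of assembly GRCm38.p6. Of the 32 measured genes, 27 matched an entry, and Gclc, Gsr, Gsta4, Hmox1 and Sod3 did not. The core was found in 9 of the 35 promoters of the 27 genes (25.7%), against 12.4% of all 32851 promoters. By gene, it was found for 9 of the 27 (33.3%), against 14% of the 27025 genes with a promoter in the whole table. The stretches of 6 of these genes are shown, those of the regulator Nfe2l2, the glutathione synthesis gene Gclm, the thioredoxin system genes Txnrd1 and Srxn1, the peroxiredoxin Prdx1 and the glutathione transferase Gsta3. Capitals mark the match, which reads GCNNNGTCA where it lies on the opposite strand, and each stretch is given along the strand of its gene.
Nfe2l2, chr2:75704875-75704913, minus strand: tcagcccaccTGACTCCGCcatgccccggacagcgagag
Gclm, chr3:122245403-122245451, plus strand: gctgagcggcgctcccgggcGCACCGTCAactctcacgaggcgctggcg
Txnrd1, chr10:82859094-82859142, plus strand: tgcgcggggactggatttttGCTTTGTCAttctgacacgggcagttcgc
Srxn1, chr2:152105532-152105573, plus strand: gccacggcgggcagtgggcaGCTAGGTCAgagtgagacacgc
Prdx1, chr4:116685446-116685494, plus strand: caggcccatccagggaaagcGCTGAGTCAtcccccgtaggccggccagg
Gsta3, chr1:21240444-21240492, plus strand: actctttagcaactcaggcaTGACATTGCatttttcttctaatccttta

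The other 3 genes with a match were Pgd, Mgst1 and Sod1. The core was followed by an A, as in the longer form of the element, for Gsta3, Txnrd1 and Pgd. These are 3 of the 27 genes (11.1%), against 3.45% of all genes with a promoter. By promoter, the longer form was found in 3 of 35 (8.57%), against 3.04% of all promoters. The match of Prdx1 also holds TGACTCA, the AP-1 motif, which shares its first 4 letters with the core. A match of letters is not a bound site, and many elements are known to lie farther from the start than this window reaches. The median log2 fold change was 0.06 over the 9 genes with a match and 0.05 over the 18 genes without one.

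Trem2, the targeted gene, had log2 values of 7.64 and 7.45 on the TREM2-/- arrays, against 9.58 and 9.74 on the WT arrays, and was lower in TREM2-/- AM by the limma test (log2 fold change −2.11, standard error 0.10, adjusted p = 0.0009). Of the 12 AM markers 9 were measured, and Car4 was called higher (log2 fold change 0.90, adjusted p = 0.035). The other 8 were not called, from −0.35 for Krt79 and −0.12 for Itgax, with both TREM2-/- arrays below the WT arrays, to 0.18 for Marco and 0.21 for Cidec, with both above. Siglecf, counted below with the eosinophil markers, is an AM marker too. It had a log2 fold change of −0.21 and was not called, with both TREM2-/- arrays below the WT arrays. Across probe sets the arrays correlated with Pearson's r of 0.995 within TREM2-/- AM and 0.994 within WT AM, and with 0.992 to 0.993 across genotypes, as a description only since probe sets are not independent. The authors normalized the values by the robust multi-array average, so a log2 fold change of 1 would be a doubling of signal. Levels of different probe sets are not compared as amounts of RNA.

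The question put to the data was whether AM without TREM-2 had a different antioxidant programme at rest. None of the 32 genes differed between genotypes by the limma test at an adjusted p below 0.05, the lowest adjusted p being 0.16 for Gsta4. Over all 19946 genes, 86 were called higher in TREM2-/- AM (0.431%) and 27 were called lower (0.135%). A count of 0 of 32 is near these background shares. Significance analysis of microarrays (SAM), the test named in the study's methods, also called none of the 32 genes, against 0.857% of all genes called higher and 0.0953% called lower. The log2 fold changes of the 32 genes ran from −0.32 for Mgst2 to 0.44 for Gsta3, with a median of 0.05, against −0.02 for all genes. Their median size was 0.080 in either direction, against 0.083 for all genes, and 19 of the 32 differed by less than 0.1. The smallest change that passed the test for any gene was 0.54.

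**Figure D1:**
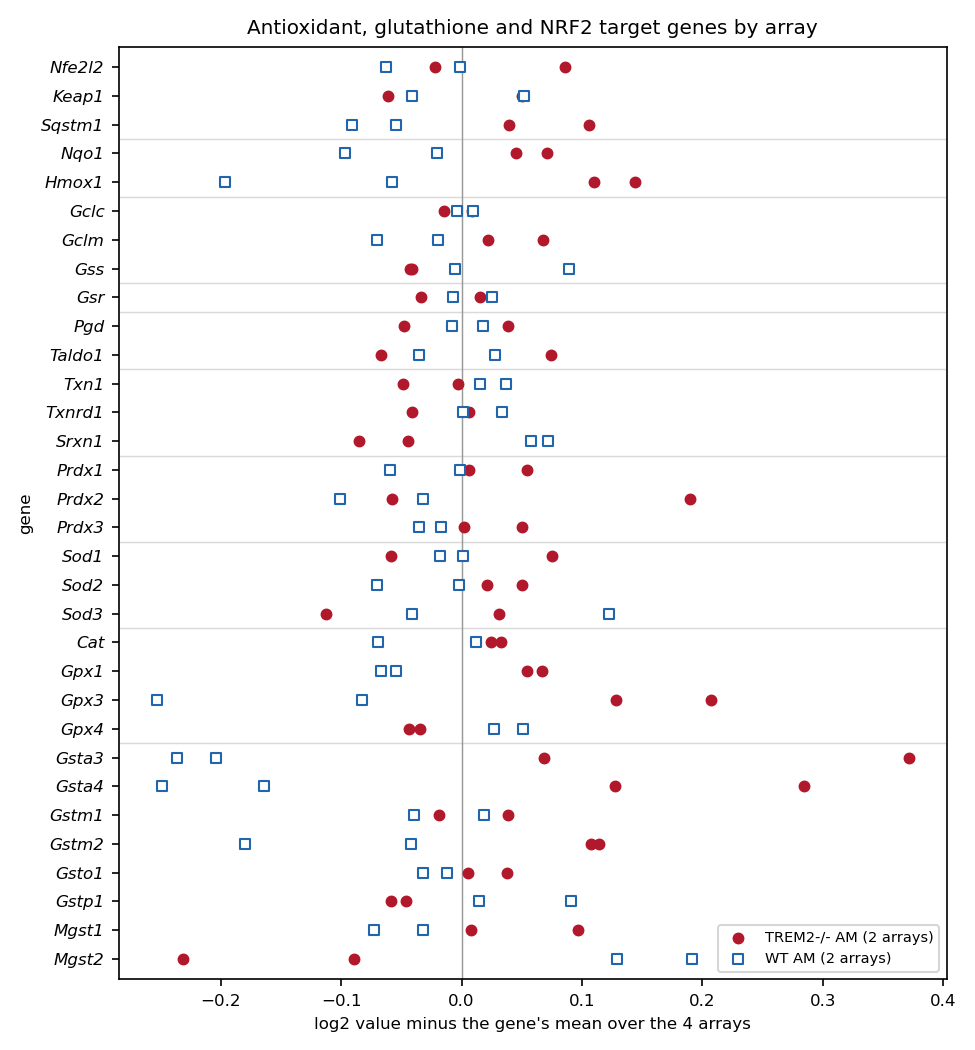
Log2 value of each of the 32 genes on each of the 4 arrays, drawn as the distance from the mean of that gene over the arrays (x axis, log2), for the TREM2-/- arrays (filled circles) and the WT arrays (open squares), with grey lines between functional groups. The arrays of both genotypes overlap for 11 genes, and the widest separations are those of Gsta3, Gsta4, Gpx3, Mgst2 and Hmox1.

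The intervals set each difference against the spread between arrays of pooled mice, which may be technical, so they do not bound the difference between mice. They were not adjusted for the number of genes. The 95% intervals reached a median of 0.18 log2 units to either side of the estimate, against 0.20 for all genes. For 30 of the 32 genes the whole interval lay inside a 1.5-fold change in either direction, as for 95.5% of all genes. The exceptions were Gsta3, with an interval from 1.12-fold to 1.64-fold, and Gsta4, with an interval from 1.15-fold to 1.54-fold, both as TREM2-/- over WT. Without adjustment, 5 of the 32 genes (15.6%) had a limma p below 0.05 with the higher value in TREM2-/- AM, where 4.64% of all genes did, and 1 gene (3.12%) had the lower value, where 6.9% did. These 6 genes were Gsta3, Gsta4, Gpx3, Gstm2 and Hmox1 on the higher side and Mgst2 on the lower side. Both TREM2-/- arrays lay above both WT arrays for 15 genes (46.9%) and below them for 6 genes (18.8%), whereas 17.4% of all genes lay above and 25.4% below. The median signal of the 32 genes was 11.04 (log2), against 6.29 for all genes. Of the 6 genes with an unadjusted limma p below 0.05, only Hmox1 lay above that set median, at a mean log2 of 12.1. The others had means of 5.31 for Gsta4, 5.87 for Gsta3, 6.37 for Gstm2, 7.27 for Gpx3 and 8.69 for Mgst2. The shares of all genes are nowhere matched for signal, and its part in these contrasts was not tested. With 2 arrays per genotype an exact permutation test of 1 gene cannot go below p = 0.333, and the separation of its arrays is given as a description.

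Among the regulators, NRF2 itself and its inhibitor had nearly the same transcript levels in both genotypes. Nfe2l2 had log2 values of 12.20 and 12.30 in TREM2-/- AM, against 12.15 and 12.22 in WT AM, a log2 fold change of 0.06 by limma (standard error 0.08, adjusted p = 0.81). Keap1, the gene of the inhibitor, had 8.80 and 8.68 in TREM2-/- AM, against 8.80 and 8.70 in WT AM, a log2 fold change of −0.01 by limma (standard error 0.08, adjusted p = 0.97). The arrays of the genotypes overlapped for both genes, and the interval of Keap1 ran from 0.865-fold to 1.14-fold. Sqstm1 encodes p62, an autophagy receptor that binds KEAP1 and is itself an NRF2 target. It had 12.72 and 12.65 in TREM2-/- AM, against 12.56 and 12.52 in WT AM, a log2 fold change of 0.15 (adjusted p = 0.52 by limma).

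The classical target genes Nqo1, Hmox1 and Gclm all lay higher on both TREM2-/- arrays, by amounts that did not pass the test. Such a separation was seen for 46.9% of the set and 17.4% of all genes. Srxn1, another NRF2 target, lay lower on both TREM2-/- arrays. Nqo1, a quinone reductase, had log2 values of 7.34 and 7.37 in TREM2-/- AM, against 7.20 and 7.27 in WT AM, a log2 fold change of 0.12 by limma (standard error 0.07, adjusted p = 0.61). Hmox1, which breaks haem down to biliverdin, iron and carbon monoxide, had 12.24 and 12.21 in TREM2-/- AM, against 11.90 and 12.04 in WT AM. This was a 1.19-fold difference (log2 fold change 0.25, standard error 0.08, adjusted p = 0.34 by limma), with an interval from 1.04-fold to 1.37-fold. The lower of the WT arrays lay farther from the other WT array than the TREM2-/- arrays lay from each other. Gclm, the modifier subunit of the enzyme that limits glutathione synthesis, had 11.68 and 11.73 in TREM2-/- AM, against 11.59 and 11.64 in WT AM, a log2 fold change of 0.09 (adjusted p = 0.70 by limma).

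With an intensity trend and robust variance in limma, 3 of the 32 genes passed. These were Hmox1 at adjusted p = 0.0053 and Sqstm1 at adjusted p = 0.048 on the higher side (6.25% of the set, against 1.9% of all genes), and Mgst2 at adjusted p = 0.023 on the lower side (3.12%, against 1.45%). Over the limma alternatives run, the adjusted p ran from 0.0053 to 0.65 for Hmox1, from 0.048 to 0.77 for Sqstm1 and from 0.023 to 0.54 for Mgst2. The log2 fold change kept its sign for each of these genes, from 0.18 to 0.32 for Hmox1, from 0.11 to 0.18 for Sqstm1 and from −0.39 to −0.25 for Mgst2. A t-test, which the methods name for comparisons in general and not for the arrays, passed without adjustment Gpx1 and Gsta4 as higher (6.25%, against 3.92% of all genes) and Gpx4 and Srxn1 as lower (6.25%, against 5.27%). With a Benjamini-Hochberg adjustment added here, that test called no gene of the 19946.

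Glutathione synthesis and recycling were close to level between genotypes. Gclc, the catalytic subunit that works with Gclm, averaged 10.22 ± 0.02 in TREM2-/- AM and 10.22 ± 0.01 in WT AM (log2, SD over 2 arrays each), with an interval from 0.884-fold to 1.12-fold. Gss, which adds the glycine that completes glutathione, averaged 8.18 in TREM2-/- AM and 8.27 in WT AM, a log2 fold change of −0.08. Gsr, the reductase that regenerates glutathione from its oxidized form, averaged 12.19 in TREM2-/- AM and 12.21 in WT AM, a log2 fold change of −0.02. Both subunits of the limiting enzyme thus differed by less than 0.1 on the log2 scale. Pgd and Taldo1, enzymes of the pentose phosphate pathway that supplies NADPH to these reductases, had log2 fold changes of −0.01, at 12.75 in TREM2-/- AM and 12.76 in WT AM, and of 0.01, at 11.02 in TREM2-/- AM and 11.01 in WT AM.

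The 3 genes of the thioredoxin system had negative log2 fold changes, none of which passed the test. Txn1, the disulphide-reducing protein itself, averaged 13.11 in TREM2-/- AM and 13.16 in WT AM, a log2 fold change of −0.05. Txnrd1, the selenoprotein reductase that recharges it, averaged 11.35 in TREM2-/- AM and 11.38 in WT AM, a log2 fold change of −0.03. Srxn1, which repairs overoxidized peroxiredoxins, had 10.72 and 10.68 in TREM2-/- AM, against 10.82 and 10.84 in WT AM, a log2 fold change of −0.13 by limma (standard error 0.07, adjusted p = 0.55). Srxn1 and Txnrd1 are well-known NRF2 targets with a match to the core element in the promoter stretches above. The arrays of the genotypes overlapped for Txnrd1. Over the 9 genes with a match the log2 fold changes ran from −0.13 to 0.44. Both TREM2-/- arrays lay above the WT arrays for 4 of the 9 and below them for 1. For the 18 genes with a promoter entry but no match, these counts were 9 above and 5 below. Over all genes 17.4% lay above and 25.4% below.

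The peroxiredoxins, which use thioredoxin to reduce hydrogen peroxide, had small positive differences. Prdx1 averaged 12.50 in TREM2-/- AM and 12.44 in WT AM (log2 fold change 0.06), and Prdx3, the mitochondrial member, averaged 10.44 in TREM2-/- AM and 10.38 in WT AM (log2 fold change 0.05). Prdx2 averaged 11.12 in TREM2-/- AM and 10.99 in WT AM (log2 fold change 0.13), with its TREM2-/- arrays at 11.25 and 11.00, the widest gap within a genotype among the peroxiredoxins. The probe sets kept for Prdx1 and Prdx2 stand among probe sets of chromosome 16 and of chromosome 1, not of chromosome 4 and of chromosome 8 where the genes lie, so they may read near-identical copies as well. The other probe set of each gene, placed with its own chromosome, gave log2 fold changes of 0.03 for Prdx1 and 0.13 for Prdx2.

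The superoxide dismutases turn superoxide into hydrogen peroxide in the cytosol (Sod1), the mitochondria (Sod2) and outside the cell (Sod3). Sod1 averaged 10.50 in TREM2-/- AM and 10.48 in WT AM, and Sod2 averaged 12.11 in TREM2-/- AM and 12.03 in WT AM, log2 fold changes of 0.02 and 0.07. Sod3 averaged 4.74 in TREM2-/- AM and 4.82 in WT AM, a log2 fold change of −0.08. Its mean log2 value of 4.78 was the lowest of the set and lay below the array medians of 5.84 to 5.86. For Sod1 and Sod3 the arrays of the genotypes overlapped.

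The enzymes that remove hydrogen peroxide and lipid peroxides separated by array but by little. Cat, catalase, averaged 12.01 in TREM2-/- AM and 11.96 in WT AM, a log2 fold change of 0.06. Gpx1, the cytosolic glutathione peroxidase, had 11.30 and 11.29 in TREM2-/- AM, against 11.16 and 11.18 in WT AM, a log2 fold change of 0.12 with arrays of a genotype within 0.02 of each other. Gpx4, which protects membranes from lipid peroxidation, had 10.99 and 10.98 in TREM2-/- AM, against 11.08 and 11.05 in WT AM, a log2 fold change of −0.08 that its second probe set repeated. The differences of Gpx1 and Gpx4 were thus larger than the gap between arrays of a genotype, which that of Cat was not, but none passed the limma test, which pools the spread over all genes. Gpx3, the secreted peroxidase of plasma and airway lining fluid, had 7.40 and 7.48 in TREM2-/- AM, against 7.19 and 7.02 in WT AM. It had a log2 fold change of 0.34 (1.26-fold, standard error 0.09, adjusted p = 0.25 by limma).

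**Figure D2:**
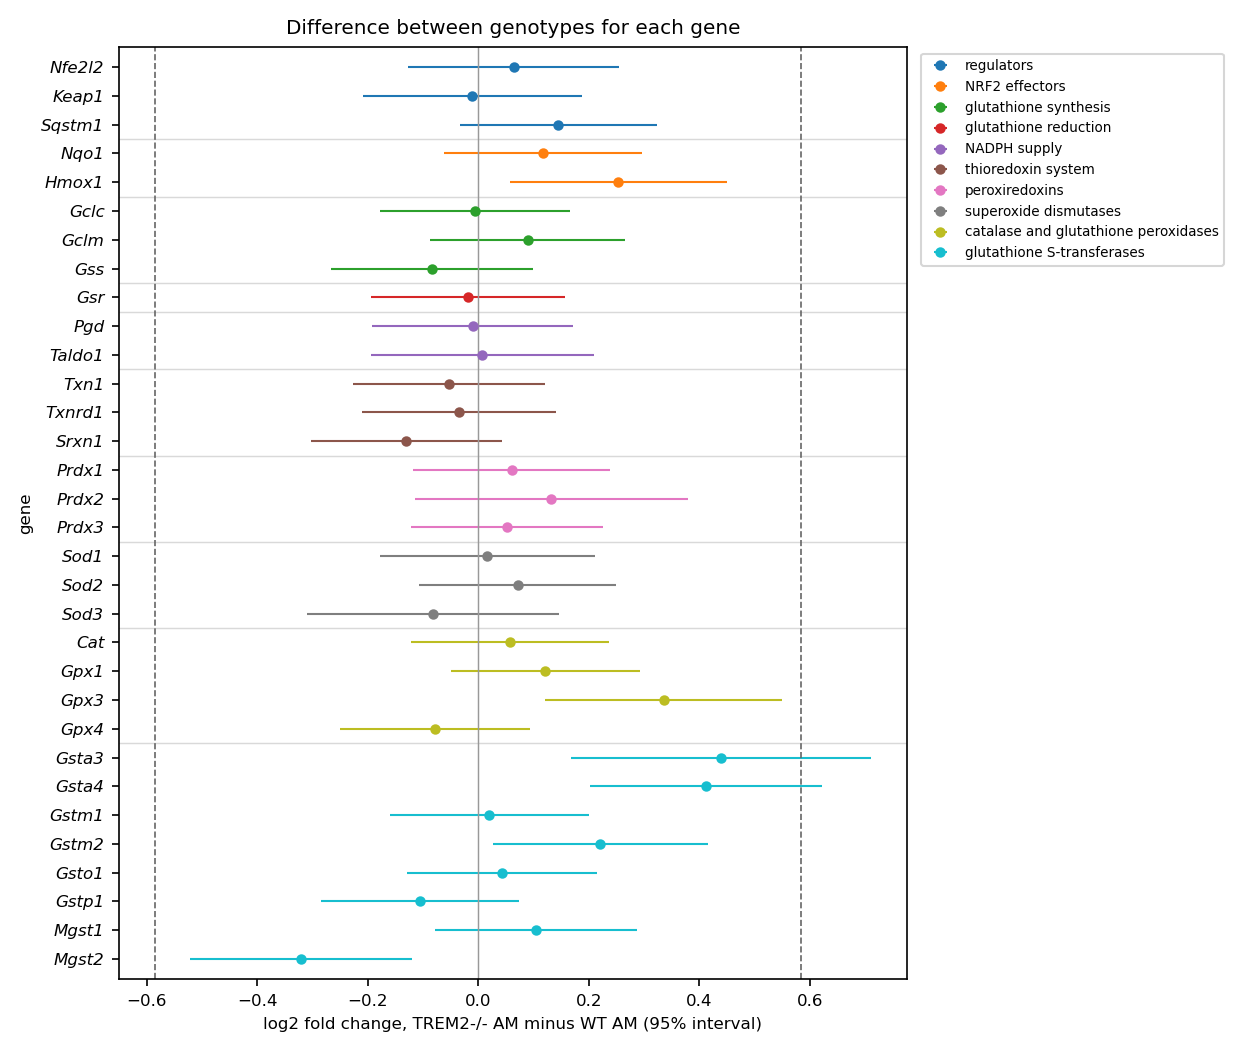
Log2 fold change of each gene, TREM2-/- AM minus WT AM (x axis), with its 95% interval from limma (bars), coloured by functional group, and dashed lines at a 1.5-fold change in either direction. The intervals of Gsta3 and Gsta4 cross the upper dashed line, those of the other 30 genes stay between the lines, and no gene passed the adjusted test.

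The glutathione transferases, which couple glutathione to electrophiles, held the widest spread of the set, with 6 of 8 positive and none past the test. Gsta3 had log2 values of 6.24 and 5.94 in TREM2-/- AM, against 5.67 and 5.64 in WT AM, a 1.36-fold difference (log2 fold change 0.44, standard error 0.11, adjusted p = 0.23 by limma). Gsta4, which favours the lipid peroxidation product 4-hydroxynonenal, had 5.44 and 5.59 in TREM2-/- AM, against 5.06 and 5.14 in WT AM, a 1.33-fold difference (log2 fold change 0.41, standard error 0.09, adjusted p = 0.16 by limma). Both genes had low signals, with mean log2 values of 5.87 for Gsta3 and 5.31 for Gsta4, against array medians of 5.84 to 5.86. No detection calls were used, and a filter at a mean log2 of 6 removed both. Without 1 array in turn, the log2 fold change of Gsta3 ran from 0.29 to 0.59, with its TREM2-/- arrays 0.30 apart. Gstm2 had 6.49 and 6.48 in TREM2-/- AM, against 6.33 and 6.19 in WT AM, a log2 fold change of 0.22 (adjusted p = 0.39 by limma). Its neighbour in the same gene family, Gstm1, averaged 12.15 in TREM2-/- AM and 12.13 in WT AM, a log2 fold change of 0.02.

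Mgst2, a microsomal enzyme with glutathione transferase and leukotriene C4 synthase activity, had the only difference beyond 0.3 with the lower values in TREM2-/- AM. Its log2 values were 8.46 and 8.60 in TREM2-/- AM, against 8.88 and 8.82 in WT AM, a 0.801-fold level (log2 fold change −0.32, standard error 0.08, adjusted p = 0.24 by limma). Mgst1, the related microsomal transferase, averaged 11.90 in TREM2-/- AM and 11.79 in WT AM, a log2 fold change of 0.10. Both enzymes sit in membranes and belong to the same superfamily, and their differences were opposite in sign. Gsto1, of the omega class, averaged 10.03 in TREM2-/- AM and 9.99 in WT AM (log2 fold change 0.04), and Gstp1, of the pi class, averaged 11.08 in TREM2-/- AM and 11.19 in WT AM (log2 fold change −0.11). The near-identical Gstp2 shares 2 further probe sets with Gstp1, which gave −0.09 and −0.07.

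**Figure D3:**
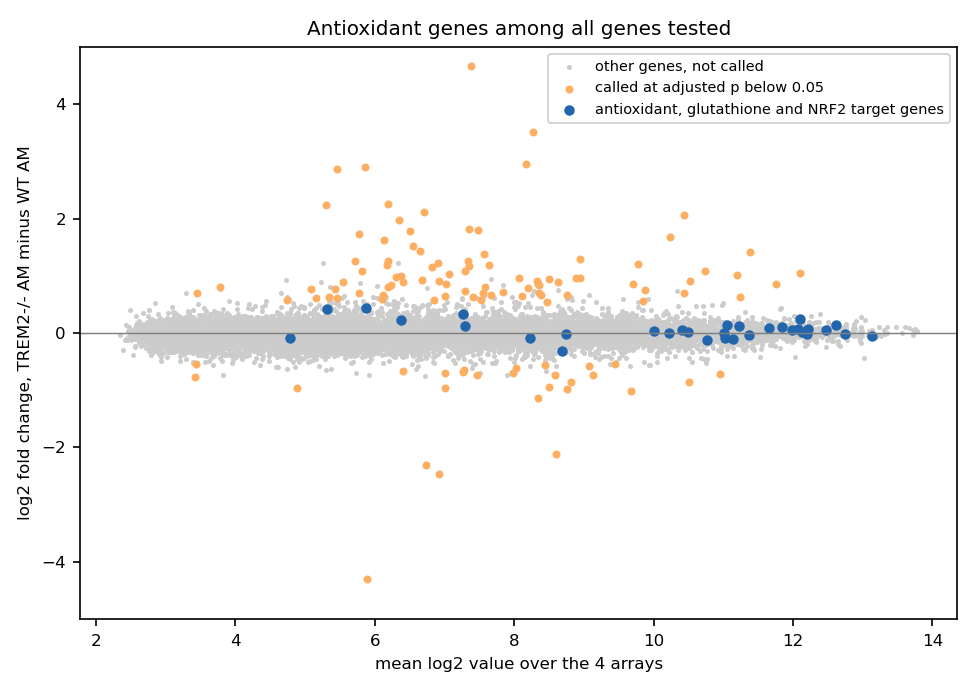
Log2 fold change, TREM2-/- AM minus WT AM (y axis), against the mean log2 value over the 4 arrays (x axis) for the 19946 genes, with genes called at adjusted p below 0.05 in orange and the 32 antioxidant, glutathione and NRF2 target genes in blue. The blue points lie between −0.32 and 0.44, inside the band of genes that were not called, while called genes start at a size of 0.54.

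Lists of genes that work beside this set held no call either. Of the proteins that work with NRF2, 14 of 15 listed were measured and none was called. The largest differences were those of Maff, a small MAF partner (log2 fold change −0.31, adjusted p = 0.38 by limma), Ep300 at 0.20 and Crebbp at 0.17, both coactivators. Among further NRF2 targets 31 of 35 were measured and none was called, with a median of −0.02. Both TREM2-/- arrays lay above the WT arrays for 10 of these 31 and below them for 13. Of all genes, 17.4% lay above and 25.4% below. The largest differences were those of Ephx1, an epoxide hydrolase (log2 fold change 0.38, adjusted p = 0.14 by limma), Abcc3, an exporter of glutathione and other conjugates (0.36, adjusted p = 0.20 by limma), and Hspb8, a small heat shock protein (0.30, adjusted p = 0.46 by limma). No call was made among 36 further redox enzymes of 39 listed, where Gstt1 (−0.26), Gstt2 (0.25) and Mt2 (−0.24) differed most, or among 14 sources of oxidants of 15 listed, where Xdh, xanthine dehydrogenase (0.27), Nox1 (−0.19) and Duox1 (−0.18) did. SAM called none in any of these 4 lists. Signals were low for Hspb8, Gstt1, Gstt2, Nox1 and Duox1, with mean log2 values of 5.33, 4.67, 5.89, 3.88 and 5.28. The array medians were 5.84 to 5.86. For Nox1 the arrays of the genotypes overlapped. Cybb, the catalytic subunit of the phagocyte NADPH oxidase, was chosen after its value was seen and had a log2 fold change of 0.09.

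**Figure D4:**
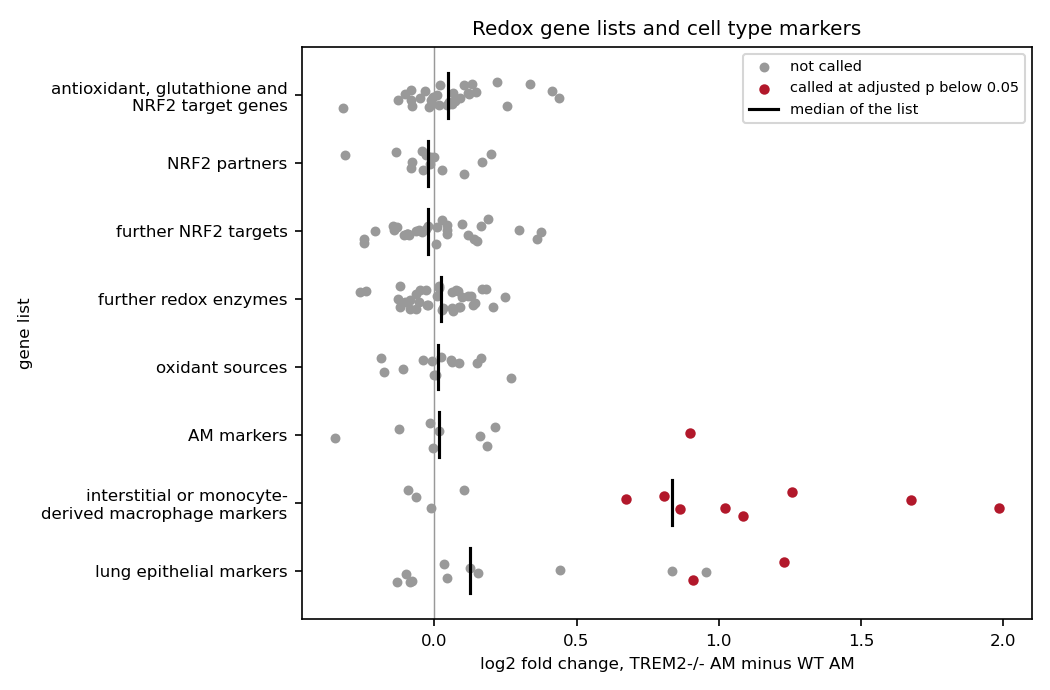
Log2 fold change, TREM2-/- AM minus WT AM (x axis), of every measured gene of each list (rows), with genes called at adjusted p below 0.05 in red and the median of each list as a black bar. No gene is red in the 5 redox lists at the top, against 8 interstitial or monocyte-derived macrophage markers, 2 lung epithelial markers and 1 AM marker below them.

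Markers of other cells that lavage can hold moved on the same arrays. Of 12 measured markers of interstitial or monocyte-derived macrophages (14 listed), 8 were higher in TREM2-/- AM and none lower, namely Pf4 (log2 fold change 1.98), Apoe (1.67), Tmem176b (1.26), H2-Ab1 (1.09), H2-Aa (1.02), Cd74 (0.86), Ccr2 (0.81) and Cx3cr1 (0.67). The other 4 ran from −0.09 for Lyve1 to 0.10 for Cd163. The summed linear signal of the 12 was 13715 to 14068 on the TREM2-/- arrays, against 6572 to 6965 on the WT arrays. Such a sum is weighted to the brightest probe sets, here Cd74, H2-Aa, H2-Ab1 and Apoe, all among the 8 called. Of the 13 genes listed for lung epithelium, all measured, limma called Scgb1a1 (0.91) and Cldn18 (1.23) higher and none lower, with a summed signal of 1434 to 1442 in TREM2-/- AM, against 1025 to 1091 in WT AM. SAM also called Krt8 and Krt18, and the other 9 were called by neither test, with log2 fold changes from −0.13 for Aqp5 to 0.44 for Sftpc. Both TREM2-/- arrays lay below the WT arrays for 4 of these, Aqp5, Epcam (−0.09), Sftpa1 (−0.08) and Sftpb (−0.10), the last a type II cell gene like Sftpc. Among 9 neutrophil markers and 5 T and B cell markers limma called none, and SAM called Csf3r. Of 2 measured erythroid markers (7 listed) Alas2 was higher (1.44), while Slc4a1 was at −0.08 and not called. Of 5 eosinophil markers Alox15 was higher (1.52), and the other 4 were negative and not called. These were Ccr3 (−0.17), Prg2 (−0.01), Epx (−0.0087) and Siglecf (−0.21), which is also an AM marker. In RNA of pooled lavage cells, more cells of a type and more RNA per cell cannot be told apart. The part of these cells in the differences of Gsta3, Gsta4, Gpx3, Gstm2, Hmox1 and Mgst2 was not tested.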

How the data were processed

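RNA of AM from TREM2-/- and WT mice was measured on 2 arrays per genotype. The authors normalized the arrays together by RMA (version not given) and deposited log2 values, 1 per probe set and array. The submitters' processing notes name the build mm9. RMA equalizes the distributions of the arrays, so a shift shared by all genes could not be seen, and its background correction compresses low signals. No detection calls were used. Array medians were 5.84 to 5.86. All 4 value columns were used, and the number of arrays limits the precision.

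Of 35557 probe sets, 21797 carried 1 symbol in the platform annotation, 1613 several, and 12147 were not listed there. RefSeq (GRCm38.p6) matched 21706 of the 21797 and was used for names, chromosomes and promoter sequences, with coordinates of that assembly only. Where a gene had more than 1 probe set (999 genes), that of highest mean log2 value stood for it. TREM2-/- was compared with WT by lmFit and eBayes of limma 3.58.1 (R 4.3.3), two-sided, Benjamini-Hochberg adjusted over 19946 genes at a threshold of 0.05, with no filter and no block. The scripts were tested on simulated data. SAM used all 6 assignments of the arrays at a false-discovery rate of 5%.

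The genes and lists were chosen with earlier results of these data known. Every gene of the set is named. Values per array are given for Nfe2l2, Keap1, Nqo1, Hmox1, Gclm, called genes and the 5 largest differences without overlap between genotypes, and for others named after their values were seen. Genes of other lists are named where called or among the 3 largest changes, and any further names were chosen after their values were seen.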

Additional observations from a re-analysis of the deposited data

How the results depend on the processing

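No gene of the set was called higher or lower under SAM, the t-test with Benjamini-Hochberg adjustment, quantile normalization, median centring, the mean of probe sets, all rows as probe sets or leaving out any array. A filter at a mean log2 of 6 removed Gsta3, Gsta4 and Sod3 and called none of the other 29. The trend with robust variance called 2 higher and 1 lower, and the unadjusted t-test 2 higher and 2 lower. Over all genes, 86 calls were higher and 27 lower. These became 171 higher with SAM, 379 and 290 with the trend, 207 and 150 with the filter, 21 and 2 with all rows, 782 and 1052 with the unadjusted t-test, 0 and 0 with the adjusted t-test, and 22 to 43 higher and 4 to 7 lower without 1 array. The causes were not tested. An array left alone in its genotype was assumed to vary like those of the other. With the replicate block the calls were 98 and 31 over all genes and 0 and 0 in the set. Arrays with the same number share only that number, with a correlation of their deviations of −0.05 over all genes and 0.27 over the set.

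Signs of the log2 fold change turned in 8 genes of the set, none of them called. Gclc was 0.0011 with median centring, and Gstm1 was −0.0070 and Taldo1 −0.0079 with quantile normalization. Without 1 array the ranges were −0.018 to 0.0059 for Gclc, −0.042 to 0.0063 for Gsr, −0.0086 to 0.049 for Gstm1, −0.067 to 0.045 for Keap1, −0.053 to 0.033 for Pgd, −0.051 to 0.083 for Sod1, −0.16 to 0.00011 for Sod3 and −0.063 to 0.078 for Taldo1. Some genes that kept their sign moved by over 1.5 times, such as Gss (−0.13 to −0.037), Prdx2 (0.0089 to 0.26) and Nfe2l2 (0.010 to 0.12). With 2 arrays per genotype, no gene with a change smaller than 0.54 passed the main limma test, so smaller differences in the set may have been missed. That size is not a fixed limit, since with the trend and robust variance Sqstm1 passed at 0.15.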
